A study of Mus musculus with 4 samples.

Results

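GABAergic interneurons of the mouse dentate gyrus (DG) were followed through 8 marker genes of the 12394 genes on the array, Gad1, Gad2, Pvalb, Sst, Vip, Nos1, Reln and Lhx6. The genes were chosen by name, and every probe set that the array's annotation gives to 1 of them was taken, which gave 11 of 22626 probe sets. Of these, 9 probe sets, covering all 8 genes, reached an average deposited signal of 50, as did 13422 probe sets in all. The remaining 2 belong to Nos1 and Lhx6 and lay below this level.

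Each array held pooled DG RNA of 1 group of C57Bl/6 mice. The study's methods give males purchased at 8 weeks of age, of substrain C57BL/6J or C57BL/6N, without saying which was used for the arrays. The groups were repeated electroconvulsive stimulation (ECS, 11 sessions under isoflurane), sham handling without the shock, the serotonin reuptake inhibitor (SSRI) fluoxetine at 22 mg/kg per day in drinking water with saccharin for 28 days, and vehicle, which the labels call water. The labels name no transgene or deletion. The labels place the ECS and sham pools at 6 h after the last session, whereas the study's methods give the next day, and mice with small frequency facilitation (3 according to the series text) had been selected for the treated pool, which the study's methods state for fluoxetine. With 1 pool and 1 array a group there were no replicates, so no test was run and no difference below carries an error. Dissected tissue also mixes cell types, and fewer cells of a type cannot be told apart from less RNA per cell.

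Interneurons are a small share of DG neurons, most of which are glutamatergic granule cells (GCs). They release GABA, which is made from glutamate by the decarboxylases that Gad1 and Gad2 encode, and they are sorted into classes by what else they make. Parvalbumin (Pvalb) marks fast-spiking basket cells, somatostatin (Sst) marks hilar cells whose axons reach the outer molecular layer, and vasoactive intestinal peptide (Vip) marks cells that mostly contact other interneurons. Neuronal nitric oxide synthase (Nos1) and the secreted glycoprotein reelin (Reln) mark further classes, and Reln is also made by Cajal-Retzius cells along the hippocampal fissure. Lhx6 is a transcription factor of cells that arise in the medial ganglionic eminence, among them Pvalb and Sst cells. Mature GCs also hold some GABA and its synthesizing enzymes, as known from rats, so GAD transcripts are not confined to interneurons.

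The stretches of DNA upstream of 5 members are shown because 4 of these genes passed the size of 1.5-fold with at least 1 treatment and because Sst and Vip are textbook targets of the cyclic AMP response element, TGACGTCA. The sequences are the 250 bases before the RefSeq transcription start (build GRCm38.p6, 5′ to 3′ on the gene's own strand), with matches to TGACGT or its reverse complement in capitals. This 6-base motif lies within the full element and was searched on both strands.
Gad2, chr2:22622077-22622326, plus strand: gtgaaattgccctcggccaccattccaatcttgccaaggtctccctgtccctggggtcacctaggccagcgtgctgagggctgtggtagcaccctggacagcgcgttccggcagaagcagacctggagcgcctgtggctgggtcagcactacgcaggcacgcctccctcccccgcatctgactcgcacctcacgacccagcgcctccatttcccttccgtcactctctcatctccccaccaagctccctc
Reln, chr5:22344706-22344955, minus strand: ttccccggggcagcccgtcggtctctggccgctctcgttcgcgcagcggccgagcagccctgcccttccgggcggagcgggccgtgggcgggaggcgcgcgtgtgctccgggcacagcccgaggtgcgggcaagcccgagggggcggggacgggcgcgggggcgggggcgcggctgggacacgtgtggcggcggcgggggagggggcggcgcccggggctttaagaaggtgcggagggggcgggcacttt
Vip, chr10:5638968-5639217, plus strand: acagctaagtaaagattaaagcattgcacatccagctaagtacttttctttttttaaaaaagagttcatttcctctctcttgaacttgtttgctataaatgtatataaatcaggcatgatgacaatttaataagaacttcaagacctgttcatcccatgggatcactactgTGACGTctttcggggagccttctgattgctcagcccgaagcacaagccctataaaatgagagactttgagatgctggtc
Nos1, chr5:117866589-117866838, plus strand: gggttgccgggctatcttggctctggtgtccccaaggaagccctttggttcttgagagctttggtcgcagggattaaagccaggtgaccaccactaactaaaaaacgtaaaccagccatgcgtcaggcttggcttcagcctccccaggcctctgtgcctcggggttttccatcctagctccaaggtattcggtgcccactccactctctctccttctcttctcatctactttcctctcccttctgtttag
Sst, chr16:23890845-23891094, minus strand: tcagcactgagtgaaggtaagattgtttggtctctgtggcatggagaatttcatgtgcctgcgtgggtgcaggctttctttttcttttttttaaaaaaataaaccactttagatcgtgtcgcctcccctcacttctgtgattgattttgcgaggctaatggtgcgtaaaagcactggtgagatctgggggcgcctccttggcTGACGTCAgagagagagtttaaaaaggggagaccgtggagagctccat
The Sst window held the full element 48 bases before the start, and the Vip window held the 6-base motif 79 bases before it. Of 32851 RefSeq windows of the same length, 1.55% held the full element and 6.47% the 6-base motif. Neither was found in the windows of Gad2, Reln and Nos1, nor in those of Gad1, Pvalb and Lhx6. The windows differed widely in base composition, from 38.4% G and C for Vip to 80.0% for Reln.

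The deposited signals had no common level, so each array was scaled to the same median over the probe sets past the filter, with factors of 1.29 for ECS, 1.19 for sham, 0.773 for fluoxetine and 0.842 for vehicle. Before this step the median log2 ratio of all probe sets was -0.10 for ECS over sham, 0.12 for fluoxetine over vehicle and -0.50 for sham over vehicle. Sham over vehicle was the one measure of how untreated pools differ. The control spread of a probe set is the scaled median absolute deviation of that log2 ratio among the 500 probe sets closest to it in brightness. Its median was 0.35 for mean signals of 50 to 100 and 0.15 for signals of 500 and more, so the untreated pools differed less in bright probe sets. The control spread describes these single pools and is not an error of replicates. The 3′ to 5′ signal ratio of the array's control probe sets was 0.736 to 0.769 for Gapdh and 1.47 to 1.59 for beta-actin over the 4 arrays. Of 7 measured mature GC genes, 3 were at least 1.5-fold lower with ECS and 5 with fluoxetine. Among all genes, by the brightest probe set of each, 4.18% were lower with ECS and 5.13% with fluoxetine. The log2 ratios with ECS and fluoxetine were -2.28 and -3.41 for Tdo2, -1.34 and -2.12 for Calb1, and -0.60 and -1.38 for Dsp. Prox1, the fate determinant of GCs, had scaled signals of 127 with ECS, 134 with sham, 139 with fluoxetine and 130.2 with vehicle. Ttr, the defining transcript of the choroid plexus, was below the filter in all 3 of its probe sets.

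The members fell into groups, as the plot of their log2 ratios shows. Gad2 and Reln were at least 1.5-fold higher with both treatments and Vip with fluoxetine, Nos1 was lower with both, and Gad1, Pvalb, Sst and Lhx6 differed less than 1.5-fold in either comparison. Over the 9 probe sets, 2 were higher and 1 was lower with ECS, against 5.31% higher and 4.16% lower among all 13422 probe sets. With fluoxetine 3 were higher and 1 was lower, against 5.69% and 4.94%. The 2 probe sets that were higher with both treatments compare with 2.82% of all probe sets, and the 1 that was lower with both compares with 1.66%. Between sham and vehicle none of the 9 reached 1.5-fold, against 2.08% higher and 1.62% lower among all. The median of the 9 log2 ratios was 0.29 for ECS over sham, 0.17 for fluoxetine over vehicle and 0.26 for sham over vehicle, where that of all probe sets was 0.01, -0.00 and -0.00. The median for ECS was thus close to that between the untreated pools and the median for fluoxetine was below it, and with so few probe sets 1 call moves a share by 11.1%. The split of calls over all probe sets depended on the scale, since 56.1% of those called with ECS were higher after scaling and 36.9% as deposited, and 53.5% and 73.5% with fluoxetine.

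**Figure D1:**
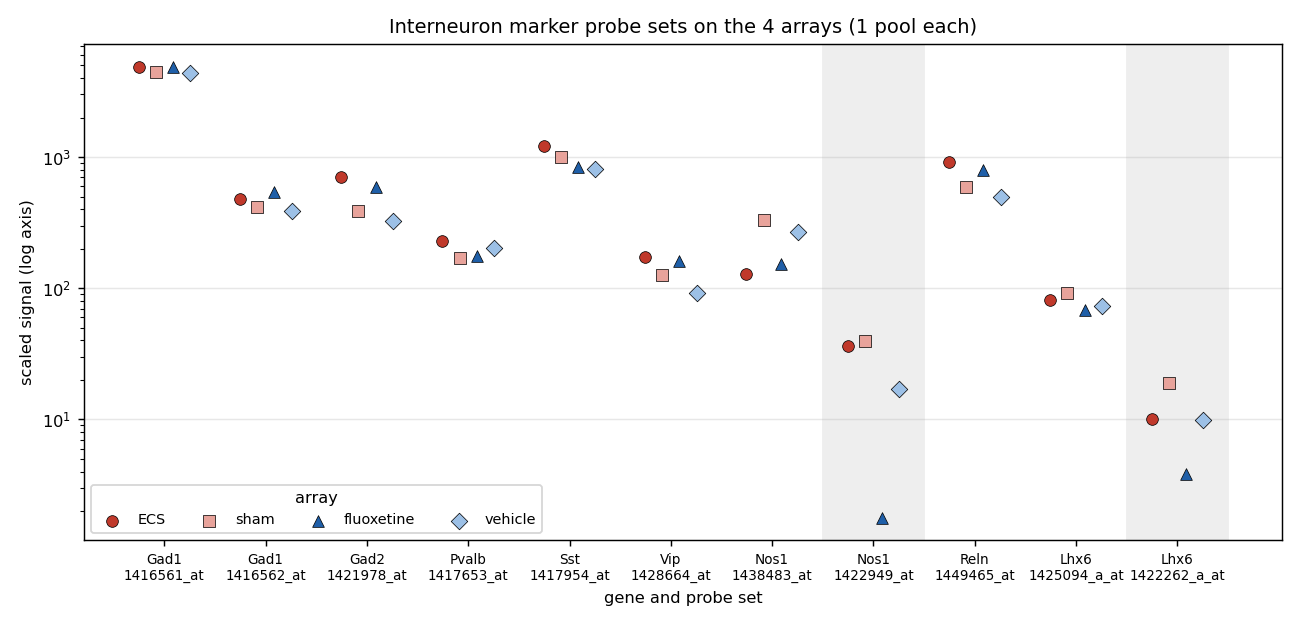
Scaled signal (log axis) of the 11 probe sets of the interneuron marker genes on the ECS, sham, fluoxetine and vehicle arrays, each point 1 pool, with the 2 probe sets below the signal filter shaded. Gad2 stood at 698 with ECS and 588 with fluoxetine, above 390.4 with sham and 328 with vehicle, while Nos1 lay lower in both treated pools.

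The genes of the GABA-synthesizing enzymes differed by unequal amounts. Gad2, which encodes GAD65, the form that is bound to synaptic vesicles, had a scaled signal of 698 with ECS and 390.4 with sham. With fluoxetine its signal was 588, against 328 with vehicle. Both treated pools lay above both untreated pools. The log2 ratios were 0.84 with ECS and 0.84 with fluoxetine (1.79-fold in each case), beside a control spread of 0.19 and a log2 ratio of sham over vehicle of 0.25. Only 2.50% of all probe sets had as high a ratio with ECS, and 2.85% with fluoxetine.

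Gad1, which encodes GAD67, the form that makes most of the GABA of the cell body, was by far the brightest member. Its brighter probe set had 4827 with ECS and 4431 with sham, and 4892 with fluoxetine and 4355 with vehicle. These signals differed little, with log2 ratios of 0.12 and 0.17 beside a control spread of 0.11 and 0.02 for sham over vehicle. The dimmer probe set had 479 with ECS and 414 with sham, and 544 with fluoxetine and 390.5 with vehicle. Its log2 ratio was 0.21 for ECS and 0.48 for fluoxetine, and the fluoxetine value exceeded its control spread of 0.18 but was under 1.5-fold. Both probe sets were thus highest in the treated pools, by unequal amounts. Within the same arrays the log2 ratio of Gad2 exceeded that of Gad1 by 0.72 with ECS and 0.68 with fluoxetine for the bright probe set of Gad1, and by 0.63 and 0.37 for the dim one, where sham over vehicle gave 0.23 and 0.17.

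Other genes of GABA handling were read beside Gad2. Slc32a1, the transporter that loads GABA into vesicles and a defining transcript of GABAergic neurons, had scaled signals of 306 with ECS and 309.5 with sham, and 332 with fluoxetine and 289 with vehicle. Its log2 ratios were -0.02 and 0.20, beside a control spread of 0.19. Of 5 measured genes of GABA synthesis, transport and breakdown, none was at least 1.5-fold higher in either comparison, and 1, the amino acid transporter Slc38a2, was lower with ECS at a log2 ratio of -0.62 (-0.31 with fluoxetine). The share of all 7935 genes that were lower, taking the brightest probe set of each, was 4.18% with ECS and 5.13% with fluoxetine. The share that were higher was 5.34% and 5.82%. Glul, the glutamine synthetase of astrocytes, had -0.39 and -0.14, and Slc38a1, a glutamine carrier, 0.16 and -0.16.

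**Figure D2:**
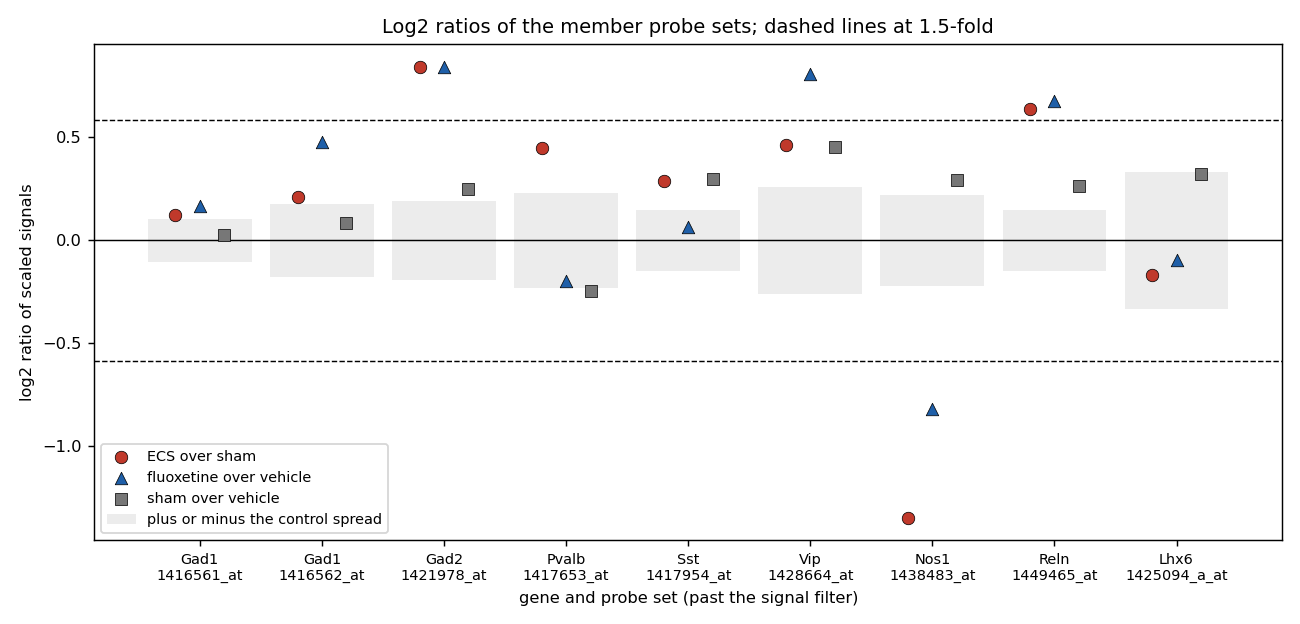
Log2 ratio of ECS over sham (circles), fluoxetine over vehicle (triangles) and sham over vehicle (squares) for the 9 probe sets past the signal filter, with dashed lines at 1.5-fold and grey bars for plus and minus the control spread. Gad2 and Reln passed the upper line with both treatments, Vip with fluoxetine only, and Nos1 passed the lower line with both, while no square passed either line.

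Reln, the extracellular signal that guides the layering of neurons and is released by a group of adult interneurons, followed the direction of Gad2. Its scaled signal was 924 with ECS and 594 with sham, and 789 with fluoxetine and 495 with vehicle. The treated pools were again above both untreated pools. The log2 ratios were 0.64 with ECS (1.56-fold) and 0.67 with fluoxetine (1.60-fold), at a control spread of 0.15 and 0.26 for sham over vehicle. The ECS value was close to the size of 1.5-fold and did not reach it in the signals as deposited, at 0.53. Against sham in place of vehicle, the fluoxetine value was 0.41. Of 5 measured genes that receive and relay the reelin signal, none reached 1.5-fold in either comparison by its brightest probe set, where 5.34% of all genes were higher and 4.18% lower with ECS, and 5.82% and 5.13% with fluoxetine, so a count of 0 is near this background. Dab1, the adaptor that is phosphorylated when reelin binds its receptors, had -0.49 with ECS and -0.31 with fluoxetine, and another probe set of it had -0.67 and -0.51, past 1.5-fold with ECS. Vldlr, a reelin receptor gene, had -0.16 and -0.11, and 1 of its dimmer probe sets had -0.41 and -0.60, past 1.5-fold with fluoxetine. The kinase gene Fyn had 0.19 and 0.50, and Crk -0.12 and -0.24.

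Nos1, which makes nitric oxide in neurons, was the member that differed most with ECS and the only one that was lower by the size used. Its brighter probe set had a scaled signal of 129 with ECS and 329 with sham. With fluoxetine it had 152, against 269 with vehicle. Both treated pools lay below both untreated pools. The log2 ratios were -1.35 with ECS, a signal 2.54-fold lower, and -0.82 with fluoxetine, 1.76-fold lower, at a control spread of 0.22 and 0.29 for sham over vehicle. Only 0.328% of all probe sets had as low a ratio with ECS, and 2.13% with fluoxetine. The dimmer probe set of Nos1 had a mean deposited signal of 21.1 and gives no usable ratio, so the lower values rest on 1 probe set. Among genes of nitric oxide and cyclic GMP signalling, 1 of 5 measured was lower with ECS and none was higher or lower with fluoxetine by the brightest probe set, where 4.18% of all genes were lower with ECS and 5.13% with fluoxetine. The lower one was Prkg1, a kinase that cyclic GMP activates, at -0.59 with ECS and -0.16 with fluoxetine, beside a control spread of 0.32. Gucy1b1, a subunit of the cyclase that nitric oxide activates, had -0.39 and -0.23 (its other probe set had -0.35 and -0.61, past 1.5-fold with fluoxetine), and the phosphodiesterase gene Pde2a 0.46 and 0.23.

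**Figure D3:**
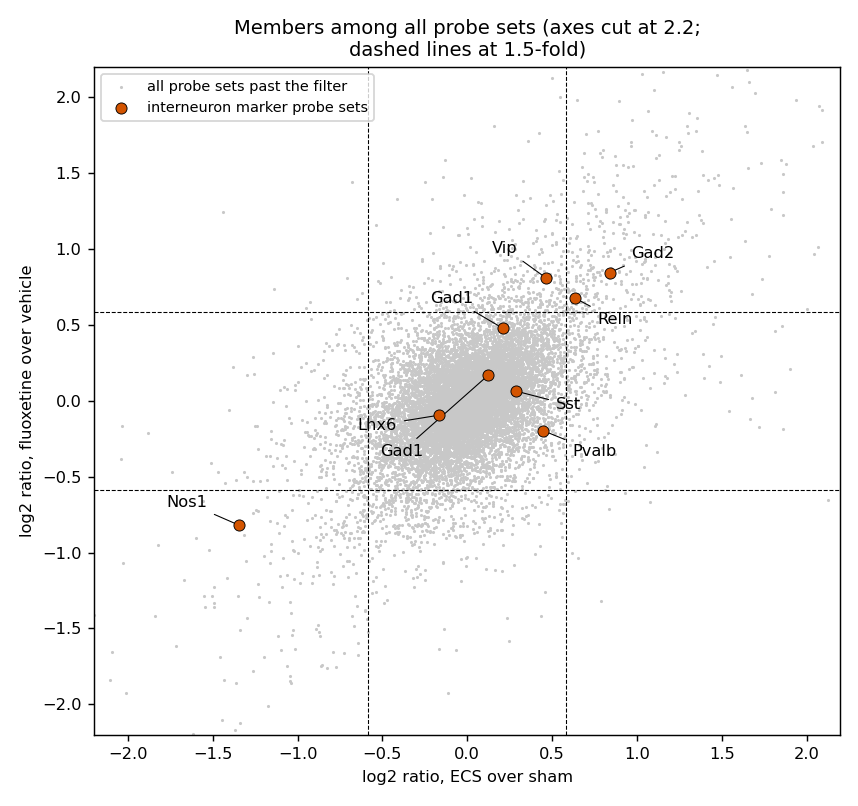
Log2 ratio of ECS over sham (horizontal) against fluoxetine over vehicle (vertical) for the 13422 probe sets past the filter (grey, of which 73 lie outside the axes) and the 9 member probe sets (orange), with dashed lines at 1.5-fold. Gad2 lies at 0.84 and 0.84, Nos1 at -1.35 and -0.82, and Pvalb has opposite signs in the 2 comparisons.

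Of the peptide genes, Vip differed more than Sst. Vip had a scaled signal of 173 with ECS and 125 with sham, and 161 with fluoxetine and 91.7 with vehicle. The treated pools were the highest, but the untreated pools were themselves apart. The log2 ratio was 0.46 for ECS and 0.81 for fluoxetine (1.75-fold), beside a control spread of 0.26, while sham over vehicle was 0.45, a ratio that only 4.19% of all probe sets reached or exceeded. The choice of control array therefore decided which treatment passed 1.5-fold. ECS over vehicle gave 0.92 and fluoxetine over sham 0.36, and over the mean of both control pools the values were 0.69 and 0.58.

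Sst, a bright probe set, had a scaled signal of 1217 with ECS and 997 with sham, and 847 with fluoxetine and 810.3 with vehicle. The ECS and sham pools were both above the fluoxetine and vehicle pools. Its log2 ratios were 0.29 for ECS and 0.06 for fluoxetine, beside a control spread of 0.15, and sham over vehicle was 0.30, as large as the value with ECS. Against vehicle the ECS pool was 0.59 higher. The fluoxetine pool was lower than the sham pool, at -0.24.

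The markers of cells from the medial ganglionic eminence that remain, Pvalb and Lhx6, differed by less than 1.5-fold. Pvalb had a scaled signal of 231 with ECS and 169 with sham, and 175 with fluoxetine and 201 with vehicle. The ECS pool was the highest and the fluoxetine pool lay between the untreated pools. The log2 ratios were 0.45 with ECS, -0.20 with fluoxetine and -0.25 for sham over vehicle, at a control spread of 0.23. The ECS value exceeded that spread, and 8.95% of all probe sets had as high a ratio. Lhx6 was the dimmest member past the filter, with 81.7 with ECS and 91.7 with sham, and 68.5 with fluoxetine and 73.2 with vehicle. Its log2 ratios of -0.17 and -0.10 were within the control spread of 0.33. A second Lhx6 probe set, with a mean deposited signal of 10.1, was not read. Of 9 measured genes of fast-spiking cells, none was higher or lower with ECS, where 5.34% of all genes were higher and 4.18% lower. With fluoxetine 1 of these fast-spiking cell genes was higher, where 5.82% of all genes were. It was the neurofilament gene Nefh, at 0.65 on the log2 scale, where ECS gave 0.35. Bcan, a proteoglycan of the nets around such cells, had -0.52 and -0.35, and Scn1a, a sodium channel gene, -0.23 and -0.45, though its other probe set had 0.13 and 0.02.

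After scaling, the untreated pools differed in a direction shared by most members. In sham over vehicle 8 of the 9 probe sets were above 0, as were 49.8% of all probe sets, and the values ran from -0.25 for Pvalb to 0.45 for Vip. Gad2, Reln, Sst and Nos1 had 0.25 to 0.30, each above its own control spread, whereas both Gad1 probe sets had at most 0.09. The sign depended on the scaling. As deposited, all 9 were below 0, from -0.75 for Pvalb to -0.05 for Vip, where the median of all probe sets was -0.50. Sham handling with anesthesia and vehicle drinking, the pools and the arrays differed together here and cannot be told apart. For Gad2, Reln, Vip and both Gad1 probe sets each treated pool exceeded both untreated pools, and for Nos1 each was below both. Over the 9 probe sets, the ECS pool was above both untreated pools in 7, and the fluoxetine pool in 5, against 40.5% and 39.1% of all probe sets. Gad2 and Nos1 kept their side of the 1.5-fold size with the control arrays exchanged, since Gad2 had 1.09 for ECS over vehicle and 0.59 for fluoxetine over sham, and Nos1 -1.06 and -1.11. The 0.59 of Gad2 was only just past this size, which is 0.585 on the log2 scale.

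**Figure D4:**
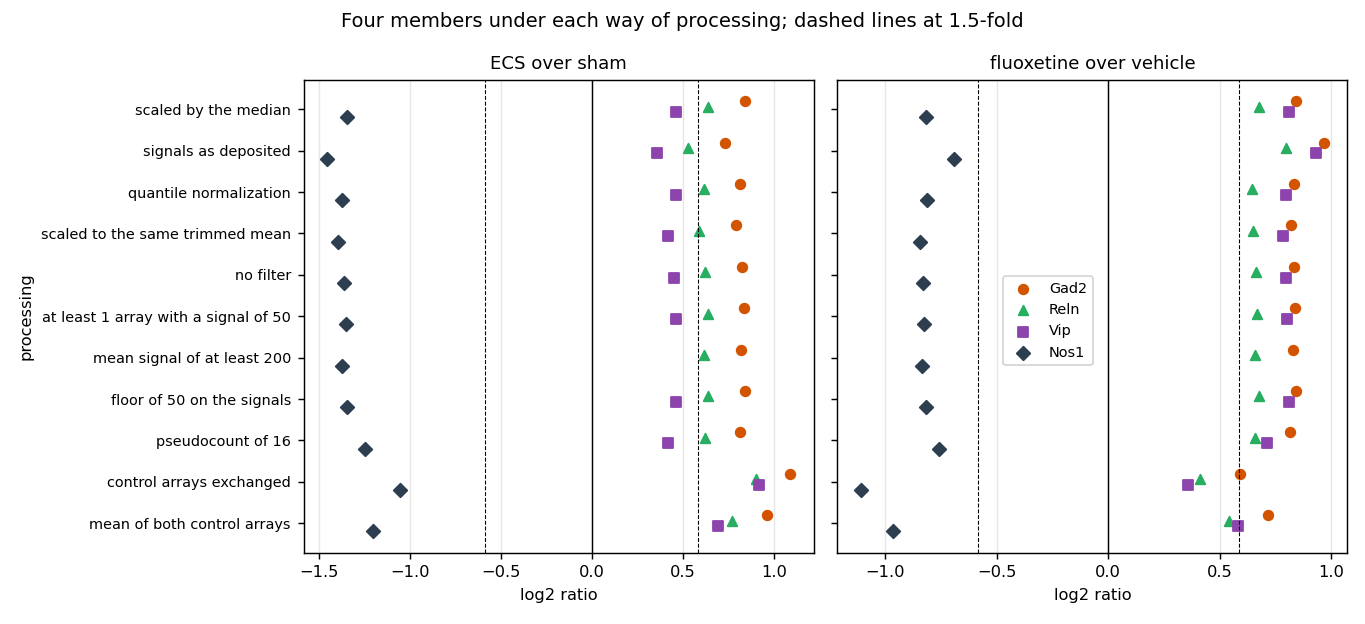
Log2 ratios of Gad2, Reln, Vip and Nos1 for ECS over sham (left) and fluoxetine over vehicle (right) under each way of processing, from the scaled signals at the top to the mean of both control arrays at the bottom, with dashed lines at 1.5-fold. Vip has no point where a mean signal of at least 200 was asked for. Gad2 and Nos1 stayed outside the lines throughout, Gad2 only just for fluoxetine over sham at 0.59. With the control arrays exchanged Vip was 0.92 with ECS and 0.36 with fluoxetine.

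Further genes of interneuron classes spanned a wider range than the members. Of 14 measured genes for peptides, calcium-binding proteins and receptors of these classes, ECS gave 6 higher and 5 lower, and fluoxetine 5 higher and 2 lower. Among all genes 5.34% were higher and 4.18% lower with ECS, and 5.82% and 5.13% with fluoxetine. Calb2, the calretinin gene, was 1 of the higher genes in both comparisons, at 0.96 and 0.85, and sham over vehicle was already 0.56. The study uses calretinin as a marker of immature GCs, and Calb2 is counted again among those genes below. The peptide and receptor list had a median of 0.25 for ECS and -0.01 for fluoxetine, so it had no common direction. Penk, proenkephalin, had 2.97 and 2.94, and Npy, neuropeptide Y, which hilar interneurons make and which GCs are known from rats to make after seizures, had 2.83 and 2.99. Tac2, the precursor of neurokinin B, had 2.29 and 3.02, but its scaled signal was 36.6 with sham and 29.1 with vehicle, so the size is uncertain. Dissected tissue does not show whether interneurons or GCs held the RNA of Penk, Npy or Tac2. Of 8 measured transcription factors of interneurons, 1 was higher with ECS and 1 lower with fluoxetine, where 5.34% and 5.13% of all genes were. Nr2f2 had 0.75 with ECS and 0.40 with fluoxetine, Nr2f1, its relative, -0.35 and -0.69, and Zeb2 -0.26 and -0.33. The defining factors Dlx2, Dlx5 and Dlx6 were on the array but below the filter. Dlx1 passed it as a dim probe set, with scaled signals of 51.1 with ECS, 50.4 with sham, 60.1 with fluoxetine and 58.1 with vehicle. Its log2 ratios were 0.02 and 0.05, beside a control spread of 0.39. The median of the transcription factor list was -0.10 with ECS and 0.04 with fluoxetine.

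**Figure D5:**
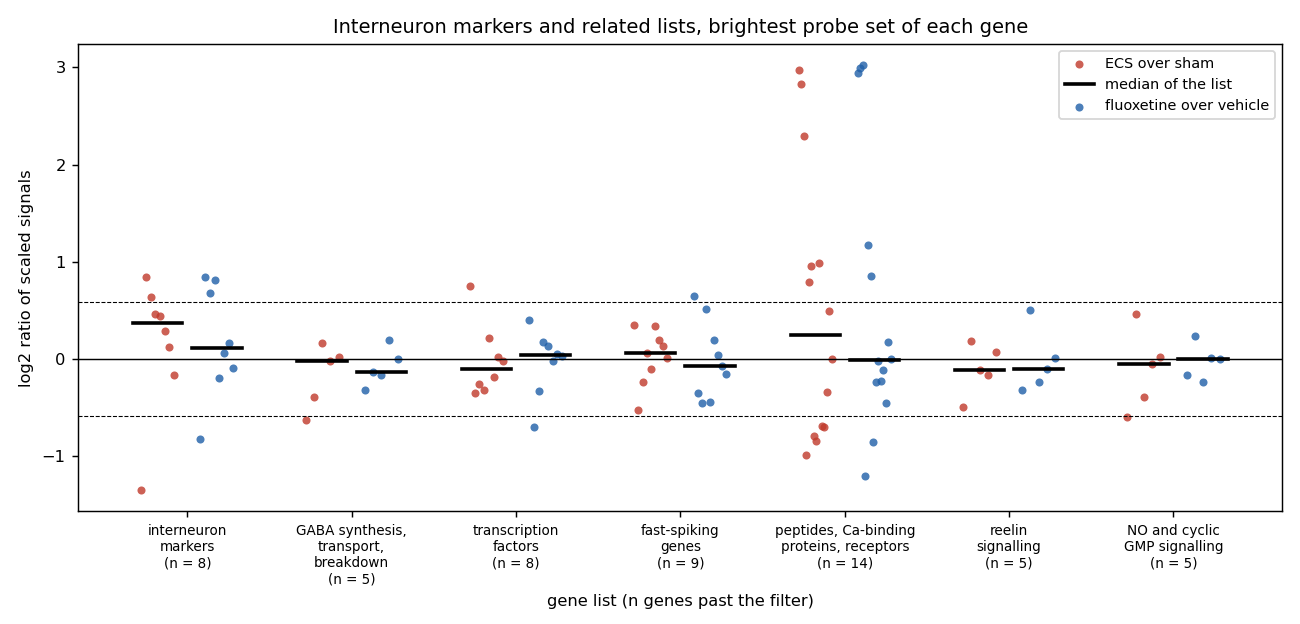
Log2 ratios with ECS (red) and fluoxetine (blue) of the brightest probe set of each gene for the interneuron markers and 6 related lists, with list medians as black bars and dashed lines at 1.5-fold. The 14 genes for peptides, calcium-binding proteins and receptors spread from -0.98 to 2.97 with ECS, while the other related lists lay mostly between the dashed lines.

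Markers of other cell types in the DG were read beside the members, with each gene counted by its brightest probe set. Among all genes counted so, 5.34% were higher and 4.18% lower with ECS, and 5.82% and 5.13% with fluoxetine. Reln also belongs to Cajal-Retzius cells, for which 3 of 9 listed genes were measured. The defining genes Trp73, Lhx1 and Lhx5 were below the filter, and the summed scaled signal of the 3 was 928 with ECS and 796 with sham, and 906 with fluoxetine and 754 with vehicle. Cacna2d2, a calcium channel subunit, was the 1 of them that was higher, with log2 ratios of 1.65 and 1.53, whereas Lhx9 had -0.79 and -0.96 and Spock1 -0.01 and 0.12. The scaled signal of Cacna2d2 was 314 with ECS and 99.7 with sham, and 319 with fluoxetine and 110 with vehicle. The higher sums thus came mainly from this 1 gene. Of 9 measured genes of immature GCs, ECS gave 5 and fluoxetine 3 that were higher, and their summed signal was 9758 with ECS and 7802 with sham, and 8266 with fluoxetine and 7579 with vehicle. Calb2 was 1 of the higher genes in both comparisons, so this count and that of the peptide and receptor list share a gene. Of 9 mossy cell genes 2 were measured and neither reached 1.5-fold, Drd2 and Calcr being below the filter. Of 9 measured microglial genes 3 were higher with fluoxetine and none with ECS, with summed signals of 6123 with ECS, 6310.1 with sham, 7664 with fluoxetine and 6033 with vehicle. Of 9 measured astrocyte genes 1 was higher with ECS and 2 with fluoxetine, with summed signals of 17602 with ECS, 17260.1 with sham, 17674 with fluoxetine and 16641 with vehicle. Gfap, the filament gene of reactive astrocytes, had log2 ratios of 2.35 and 2.30, and Aqp4, the water channel gene, 0.45 and 0.74. A dimmer Aqp4 probe set passed 1.5-fold in both comparisons, at 0.67 and 0.83. Other astrocyte genes lay below 0, Slc1a3 at -0.53 and -0.08, Gja1 at -0.09 and -0.21, and Aldoc at -0.09 and -0.13. Dimmer probe sets of Slc1a3 (-0.72) and Gja1 (-0.63) were past 1.5-fold lower with ECS. Another dim Gja1 probe set was so with fluoxetine, at -1.64. The astrocyte list had medians of 0.13 and 0.20. Of 8 measured genes of CA1 and CA3 pyramidal cells, ECS gave 1 higher and 1 lower, and fluoxetine 2 higher and 2 lower, with summed signals of 1838 with ECS, 1387 with sham, 1682 with fluoxetine and 1386 with vehicle. Bok made up a large part of these sums, with 879 with ECS, 459 with sham, 775 with fluoxetine and 468 with vehicle. The log2 ratios of Bok were 0.94 and 0.73, and those of Pou3f1 -1.12 and -1.55, where sham over vehicle was already -0.71. The median of the pyramidal cell list was 0.33 with ECS and -0.05 with fluoxetine. Of 8 oligodendrocyte genes none reached 1.5-fold by its brightest probe set, and of 6 endothelial genes 1 was higher with ECS. Dimmer probe sets of Mobp and Mbp passed that size with ECS in opposite directions, at 0.99 and -0.67. The part of these cells in the values of Gad2, Reln, Vip and Nos1 was not tested.

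Genes whose 4 signals ran most like those of a member were sought among genes with a mean signal of at least 200, by the Euclidean distance between log2 signals with each gene's mean taken off. Gad2 was nearest to Dpysl3, at a distance of 0.03 and with log2 ratios of 0.84 and 0.87, followed by Sulf2 and Resp18, at 0.08 and 0.11. Reln was nearest to Rian (0.06), Rab3c (0.09) and Gp1bb (0.11), and Vip to Dennd11 (0.08), Tmem176a (0.09) and Tcf25 (0.13). Nos1 had no gene as near, the closest being Hace1 at 0.22, Gda at 0.24 and Tgfa at 0.25. Within a distance of 0.3 there were 40 of 5233 genes for Gad2, 85 for Reln and 6 for Nos1, and 51 of 5234 for Vip. With 4 arrays such nearness describes these pools only.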

How the data were processed

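Total RNA of the DG was pooled by group by the authors, amplified with a 3′ IVT kit and hybridized to Affymetrix mouse genome 430A 2.0 arrays, 1 per group. The deposited values are linear signal intensities that the authors computed with MAS5 (named in the submitters' processing notes), and they were not scaled between arrays. The genome build behind the probes is not given in the sources used here, and the sequences shown come from RefSeq (GRCm38.p6).

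With Python 3.11.15, numpy 2.4.6 and pandas 2.3.3, 22690 rows were read, of which 64 array controls and all rows averaging below 50 in deposited signal were left out. Each array was scaled to the same median log2 signal past the filter, and log2 ratios were formed for the 3 comparisons. A change meant at least 1.5-fold. No replicates exist, so no p-value is given, and how few arrays there are limits the precision. The steps were tested on simulated data. Names came from the platform annotation (20380 probe sets with 1 gene, 691 with several, 1555 with none), of which 20351 identifiers were in RefSeq, all with the same symbol.

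The members and lists were chosen with earlier results of these data known. All members were named. From each other list up to 3 genes with the largest mean absolute log2 ratio, by the brightest probe set, were picked for naming, and not all of these are described above. Slc32a1, Vldlr, Prox1, Slc1a3, Dlx1, Mbp, the genes below the filter and those in the closing section were named after their values were seen. So were Gja1 and Aldoc. Alternatives were the signals as deposited, quantile normalization, an equal trimmed mean, other filters, a floor of 50, a pseudocount of 16, other ways to join probe sets, other control arrays, and sizes of 1.2-fold and 2-fold.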

Additional observations from a re-analysis of the deposited data

Results flagged for a closer look

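Pvalb, the parvalbumin gene of fast-spiking basket cells, was the 1 member past the signal filter whose log2 ratio had opposite signs in the 2 comparisons, 0.45 for ECS over sham and -0.20 for fluoxetine over vehicle. The difference of 0.65 was not tested, since each value rests on 1 pool against 1 pool. The untreated pools themselves stood apart by -0.25 for sham over vehicle, at a control spread of 0.23. With the control arrays exchanged the log2 ratios were 0.20 for ECS over vehicle and 0.05 for fluoxetine over sham, so the opposite signs were then gone.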

How the results depend on the processing

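Every count rests on 1 array a group, and the control spread was widest for signals near the filter. A median or a ratio was taken to have moved when it shifted by at least the control spread, and a count when it differed by over 1.5 times. As deposited, 1 member probe set was higher with ECS, since Reln was at 0.53, and the median of sham over vehicle was -0.24 with 1 probe set lower, the pair of arrays with the largest offset. With no filter, which adds both dim probe sets, 2 were lower with ECS, 3 were lower with fluoxetine and 2 were higher for sham over vehicle. With the control arrays exchanged, 4 were higher for ECS over vehicle and 1 for fluoxetine over sham. Over the mean of both control arrays, 1 was higher with fluoxetine. At 1.2-fold, 5 were higher with ECS and 5 for sham over vehicle. At 2-fold none was higher with either treatment (0 and 0) and none was lower with fluoxetine (0). The other 100 counts and medians stayed within these limits. Of 243 log2 ratios of single probe sets under the alternatives, 25 moved and none past 1.5-fold changed sign. No paired analysis was possible because each group has 1 array.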

Other observations

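Of the peptide receptor genes listed, Sstr2 and Npy2r were singled out after their values were seen, while Sstr1, Sstr3, Sstr4, Tacr1 and Vipr1 were below the filter. Sstr2, a somatostatin receptor gene, had scaled signals of 239 with ECS and 138 with sham, and 362 with fluoxetine and 161 with vehicle, and log2 ratios of 0.80 and 1.17, beside a control spread of 0.22. Npy2r, the gene of the Y2 receptor for neuropeptide Y, had 403 with ECS and 796 with sham, and 326 with fluoxetine and 752 with vehicle, and log2 ratios of -0.98 and -1.20, beside 0.18. Both were thus on the same side with each treatment, while sham over vehicle was -0.22 and 0.08.

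Lamp5, a marker of neurogliaform interneurons in the cortex, was lower with both, at -0.79 with ECS and -0.85 with fluoxetine. Tac1, the substance P precursor, had 0.99 with ECS and -0.02 with fluoxetine, a difference that was not tested. Nxph1 and Calcrl had log2 ratios of 0.69 and -0.73 for sham over vehicle, the only genes of the peptide and receptor list past 1.5-fold between the untreated pools. Both were also counted as lower with ECS, each at -0.69. Nxph1 had scaled signals of 129 with ECS, 209 with sham, 120 with fluoxetine and 129 with vehicle, so its ECS pool was level with vehicle. Calcrl was dim, with 40.7 with ECS and 65.5 with sham.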
